A study of Mus musculus with 12 samples.

Results

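The retinas of mice immunized with a myelin oligodendrocyte glycoprotein (MOG) peptide and then needled at acupoint GB20 were compared with the retinas of immunized mice that were not needled. The comparison covered 6 of the 12 RNA-seq libraries of the series, 3 labelled GB20 and 3 labelled MOG, and was read across all 18299 genes that passed an expression filter, out of 34538 genes with any count. Genes were kept whether or not immunization itself had moved them. All mice were wild type C57BL/6 females, 13 weeks old. The MOG mice had received the peptide in complete Freund's adjuvant with pertussis toxin, a model of experimental autoimmune encephalomyelitis (EAE) with optic neuritis. The GB20 mice had received the same immunization and later, under xylazine and ketamine, repeated needling at GB20, a point at the back of the head used in eye disease. The other 6 libraries came from SHAM control mice and from immunized mice needled at GV16, a neighbouring control point, and they entered the model for its estimate of spread.

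The retina keeps its own circadian clock, in which Clock and Bmal1 (Arntl) switch on the Per and Cry repressors and a set of output genes through E-box elements, and the repressors then shut off their own transcription. Müller cells, the main glia of the retina, buffer water and ions, supply neurons with metabolites and turn on stress genes when the optic nerve is inflamed. Basement membranes of collagen IV and laminin lie under the vessels and along the inner surface of the retina, and proteases such as tissue plasminogen activator and membrane-bound metalloproteinases remodel them.

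Total counts lay between 16122738 and 18067710 in MOG and between 16338917 and 19194280 in GB20. Markers of rods and Müller cells were abundant in every library of the series, with Gnat1 at 2930 to 3620 FPKM and Glul at 494 to 617 FPKM. Counts of replicate libraries differed beyond sampling noise (chi-square per gene 2.87 to 6.35), and no pair of them was counted as 1 sample. Needled mice had been anaesthetised, and the sources used here do not say whether MOG mice had been, so needling and anaesthesia cannot be told apart in GB20 vs. MOG. The hour at which mice were killed is not given in the sources used here. The study's methods describe repeated experiments with a few mice in a group and RNA taken by group, so a library may pool several mice, and p-values measure the spread between libraries. In whole retina, fewer cells of a type and less RNA per cell cannot be told apart.

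Few genes differed between GB20 and MOG, and most of those by a modest factor. In total, 44 differentially expressed genes (DEGs, Benjamini-Hochberg adjusted p under 0.05 in edgeR) were found, of which 18 were higher and 26 lower in GB20 than in MOG. They made up 0.24% of the genes tested, 0.0984% for the higher and 0.142% for the lower genes. The median size of their log2 fold changes was 0.57, 16 of the 44 changed by less than 0.5 on the log2 scale, and 10 changed by at least 1, of which 7 fell and 3 rose. Their mean level lay between 1.26 and 264 CPM (counts scaled to library size), and all 44 were protein-coding. The GB20 and MOG libraries did not overlap for any of the 44, against 15.7% of all genes tested. The 44 were picked by a test on these same libraries, so their separation adds no support to the calls. Without the adjustment, 1464 genes, or 8%, had a p under 0.05, with 752 (4.11%) higher and 712 (3.89%) lower. The count of DEGs moved with single libraries. It was 25, 13 and 17 without MOG replicate 1, 2 and 3, it was 18, 22 and 21 without GB20 replicate 1, 2 and 3, and it was 83 without SHAM replicate 2.

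**Figure D1:**
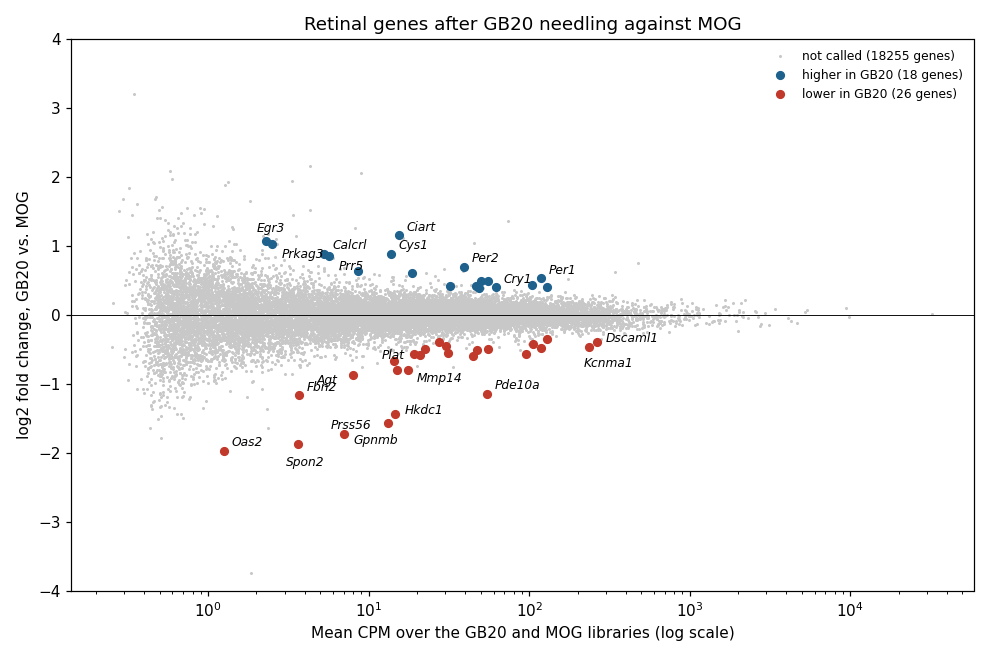
Each point is 1 of the 18299 genes tested, placed by its mean CPM over the GB20 and MOG libraries (log scale) and its log2 fold change in GB20 vs. MOG. The 18 higher and 26 lower DEGs are coloured and lie at the edge of a cloud centred at 0, from Ciart at 1.16 to Oas2 at -1.97.

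Among the DEGs, the largest rise, and the rise with the lowest p, belonged to the circadian clock. Of 14 genes listed as repressors or outputs of the clock, 6 rose and none fell: Ciart, Per1, Per2, Cry1, Dbp and Bhlhe40. Ciart encodes a repressor that acts on the Clock and Bmal1 complex, Per1, Per2 and Cry1 encode the core repressors, Dbp encodes a transcription factor that carries the rhythm to output genes, and Bhlhe40 encodes a repressor that binds E-boxes. The sequence upstream of the start is shown for those of the 6 that hold the E-box, the element through which Clock and Bmal1 act. Of the 6 genes, 4 had entries among the RefSeq start windows (GRCm38.p6), and in 3 of these, Ciart, Per1 and Cry1, the 250 bases before a start held CACGTG. The Dbp window and the second Per1 window held none. Each window is written 5′ to 3′ on the gene's strand, with CACGTG in capitals.
Ciart, chr3:95882229-95882478, minus strand: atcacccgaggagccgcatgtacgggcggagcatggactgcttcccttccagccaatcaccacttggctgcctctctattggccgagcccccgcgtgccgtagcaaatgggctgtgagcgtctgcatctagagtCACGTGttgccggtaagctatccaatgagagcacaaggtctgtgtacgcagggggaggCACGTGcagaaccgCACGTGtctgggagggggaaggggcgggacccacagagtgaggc
Per1, chr11:69098699-69098948, plus strand: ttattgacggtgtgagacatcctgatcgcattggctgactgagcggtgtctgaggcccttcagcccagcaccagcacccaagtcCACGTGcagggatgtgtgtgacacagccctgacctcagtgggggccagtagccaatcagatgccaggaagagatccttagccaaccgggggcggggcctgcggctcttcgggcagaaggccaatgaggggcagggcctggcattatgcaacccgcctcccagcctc
Cry1, chr10:85185055-85185304, minus strand: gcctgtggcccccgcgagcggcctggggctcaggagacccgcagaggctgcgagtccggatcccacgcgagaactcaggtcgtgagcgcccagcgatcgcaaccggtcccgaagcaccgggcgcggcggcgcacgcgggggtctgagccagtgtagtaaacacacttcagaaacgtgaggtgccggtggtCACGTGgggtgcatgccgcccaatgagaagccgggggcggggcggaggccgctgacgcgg
The Ciart window held the element 3 times, at 116, 58 and 44 bases before the start, Per1 held it once at 166 bases and Cry1 once at 60 bases. CACGTG, which reads the same on both strands, was present in 6.02% of all 32851 windows of this length. By gene, 6.86% of the 27025 genes with a window held it. Across the whole list of 14, 12 genes had a window and 5 of them held it. A D-box (TTATGTAA or TTACGTAA, either strand, 0.931% of windows) and the cAMP element (TGACGTCA, 1.55% of windows) were in none of the windows of the 4 called genes that had one. These matches describe letters in a window and are not evidence of binding.

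Ciart stood at 8.62, 10.5 and 9.73 CPM in MOG and 21.3, 24.3 and 18.7 CPM in GB20, so that each GB20 library was above the highest MOG library (log2 fold change 1.16, SE 0.13, adjusted p = 3.39e-05). This corresponds to 2.23-fold, and Ciart stayed a DEG whichever of the 12 libraries was left out. Per2 was measured at 27.4, 33.2 and 30.0 CPM in MOG and 45.7, 51.3 and 49.6 CPM in GB20, again with no overlap, and was likewise a DEG whichever library was left out (log2 fold change 0.70, SE 0.11, adjusted p = 0.00407). Per1 varied more among MOG libraries, with 83.1, 97.3 and 112 CPM in MOG and 132, 159.6 and 131 CPM in GB20 (log2 fold change 0.53, SE 0.10, adjusted p = 0.0337). The highest MOG library, replicate 3, lay closest to the GB20 libraries for Per1, which was no longer called on leaving out MOG replicate 1 or 2, any GB20 library or SHAM replicate 3 (0.43 to 0.58). Per1 was also not called when gene length entered the model (adjusted p = 0.0679). Cry1 was nearly constant in MOG, with 53.4, 53.2 and 53.6 CPM in MOG and 64.2, 73.2 and 74.1 CPM in GB20 (log2 fold change 0.40, SE 0.07, adjusted p = 0.0153), and was not called on leaving out any MOG library or GB20 replicate 2 or 3 (0.36 to 0.40). Dbp stood at 89.4, 86.3 and 90.5 CPM in MOG and 119, 131 and 109.9 CPM in GB20 (log2 fold change 0.43, SE 0.07, adjusted p = 0.00554). The groups of Dbp did not overlap, and it was no longer called on leaving out MOG replicate 2 or GB20 replicate 2 (0.36 to 0.41). Of the exons of Dbp, 18% overlap Sphk2 on the other strand, and the strand setting of the counting is not given in the sources used here. Bhlhe40 was the smallest of these rises, with 42.4, 39.8 and 45.0 CPM in MOG and 49.8, 60.6 and 56.5 CPM in GB20 (log2 fold change 0.39, SE 0.08, adjusted p = 0.0414), and lost its call on leaving out any MOG library, GB20 replicate 2 or 3, GV16 replicate 3 or SHAM replicate 1 (0.32 to 0.43).

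**Figure D2:**
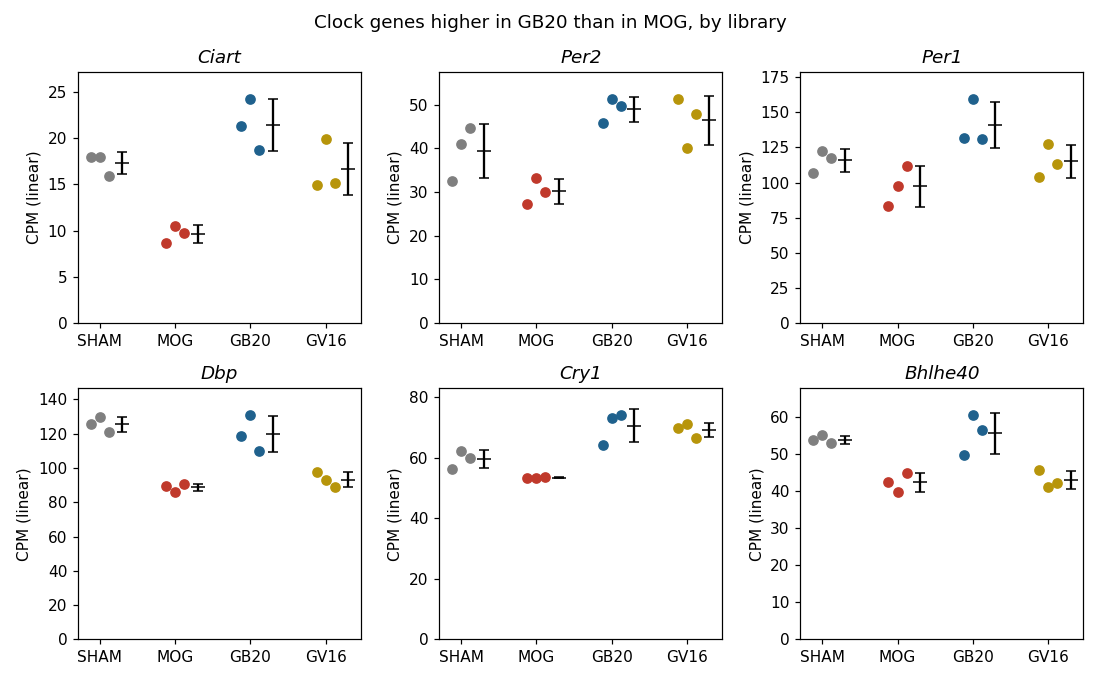
Each panel shows 1 clock gene in CPM (linear axis from 0) for the 12 libraries, with points for libraries and a bar for the mean and SD of each group of 3. In every panel the 3 GB20 points lie above the 3 MOG points, from 18.7 CPM or more against 10.5 CPM or less in Ciart to 49.8 or more against 45.0 or less in Bhlhe40.

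The other clock outputs were not called in the 12-library edgeR fit. Tef, a partner of Dbp in the same transcription factor family, stood at 293, 303 and 290.4 CPM in MOG and 360.03, 359 and 360.01 CPM in GB20 (log2 fold change 0.28, adjusted p = 0.0819). Usp2, a deubiquitinase that cycles with the clock, stood at 138, 151 and 144 CPM in MOG and 204, 240.1 and 177 CPM in GB20 (log2 fold change 0.52, adjusted p = 0.424). Both had GB20 libraries entirely above MOG libraries, and both calls turned with the fit: with DESeq2 on the 6 libraries the adjusted p was 0.000104 for Tef and 1.1e-05 for Usp2, and 8 members of the list were called. Tef and Usp2 were also called by edgeR on the 6 libraries (adjusted p = 0.0401 and 0.00247) and with no filter on low counts (0.0317 and 0.00651). DESeq2 on 12 libraries called 7 members of the list, Tef among them (adjusted p = 3.06e-05). Other fits called fewer members: limma-voom called 5, without Bhlhe40 (adjusted p = 0.0523), and limma on log2(FPKM + 1) called 1. In that FPKM fit Per2, Cry1, Dbp, Per1 and Bhlhe40 had adjusted p of 0.0701, 0.0667, 0.0517, 0.162 and 0.154. Nr1d1, the receptor that represses Bmal1, had a log2 fold change of -0.12, adjusted p = 0.738. It was the single member of the 14 with a negative value, against 50.2% of all genes tested with a positive one. The groups were apart and higher in GB20 for 11 of the 14, against 7.96% of all genes, and the median log2 fold change of the list was 0.34 against 0.00084 over all genes tested. The summed level of the 14 genes was 1750 to 1770 CPM in MOG and 2030 to 2190 CPM in GB20. The number of members called was 3, 2 and 4 without MOG replicate 1, 2 and 3, it was 2 and 3 without GB20 replicate 2 and 3, and it lay between 5 and 7 without any other library.

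The activating side of the clock was measured apart from its outputs. None of 8 genes of the Bmal1 arm passed the test, and their median log2 fold change was -0.12. Arntl, which encodes Bmal1, stood at 109, 110.3 and 109 CPM in MOG and 90.6, 103 and 99.8 CPM in GB20 (log2 fold change -0.17, SE 0.07, adjusted p = 0.525), and Clock at 184, 197 and 189 CPM in MOG and 171, 154 and 175 CPM in GB20 (log2 fold change -0.19, SE 0.10, adjusted p = 0.646). For Arntl and Clock the GB20 libraries reached at most 103 CPM and 175 CPM and lay below all MOG libraries, a difference that did not pass the adjusted threshold. Of the 7 genes of this arm with a window, 0 held CACGTG. Among 8 tested genes of rhythmic signalling in photoreceptors and dopaminergic cells, 1 fell, Pde10a, which encodes a phosphodiesterase for cyclic nucleotides (chr17:8525372-8986648, plus strand). Pde10a stood at 72.0, 80.7 and 71.9 CPM in MOG and 33.3, 34.1 and 34.4 CPM in GB20, so that every MOG library was above every GB20 library, and the fitted level in GB20 was 0.453 times that in MOG (log2 fold change -1.14, SE 0.17, adjusted p = 0.0233). GB20 libraries agreed closely for Pde10a, yet SHAM libraries spread over 45.5, 24.1 and 38.0 CPM and entered the same dispersion. The call was lost on leaving out any 1 of the 6 GB20 and MOG libraries or SHAM replicate 3 (-1.17 to -1.09).

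Genes induced by neuronal activity and by glucocorticoids, both of which can also induce Per1, were read as lists. Of 17 immediate-early genes tested, 1 rose, Egr3, a zinc finger transcription factor, with 1.57, 1.35 and 1.501 CPM in MOG and 3.35, 3.28 and 2.68 CPM in GB20 (log2 fold change 1.07, SE 0.23, adjusted p = 0.0488). Egr3 was 2.10-fold higher at a low level with separate groups, and the call was lost on leaving out any 1 of the 6 GB20 and MOG libraries, GV16 replicate 2 or 3 or SHAM replicate 1 or 3 (1.01 to 1.16). It was also lost with DESeq2 on 12 libraries (adjusted p = 0.0714), limma-voom (0.0748), upper-quartile scaling (0.055), a filter at 1 CPM (0.0553) and log2(FPKM + 1) (0.0801). Nr4a3, an orphan nuclear receptor induced by activity, stood at 1.79, 0.737 and 2.88 CPM in MOG and 5.51, 5.53 and 3.78 CPM in GB20 (log2 fold change 1.45, adjusted p = 0.309) and did not pass, but was called with DESeq2 on 12 libraries (adjusted p = 0.0271) and with no filter on low counts (1.11e-06). Fos, the classical activity gene, overlapped between groups, with 22.2, 21.5 and 33.1 CPM in MOG and 31.9, 40.4 and 22.7 CPM in GB20 (log2 fold change 0.31, adjusted p = 0.857). The median of this list was 0.21 and 15 of its 17 genes were positive, against 50.2% of all genes tested. Of 17 glucocorticoid targets tested, 2 rose, Per1 and Tsc22d3, which encodes the glucocorticoid-induced leucine zipper. Tsc22d3 stood at 27.6, 27.0 and 27.4 CPM in MOG and 37.6, 37.2 and 34.7 CPM in GB20, with a gap of several CPM between the groups (log2 fold change 0.42, SE 0.08, adjusted p = 0.029), and lost its call on leaving out any 1 of the 6 GB20 and MOG libraries (0.40 to 0.45). Fkbp5, a chaperone partner of the glucocorticoid receptor, stood at 32.0, 32.0 and 28.0 CPM in MOG and 29.9, 41.4 and 34.96 CPM in GB20 (log2 fold change 0.21, adjusted p = 0.628), with overlapping groups. The median of the list was 0.21, and 16 of 17 were positive, against 50.2% of all genes tested. No member of this list was called without MOG replicate 1 or 2 or without any GB20 library, and 1 was called without MOG replicate 3 or SHAM replicate 3. With no filter on low counts 5 members were called, and with log2(FPKM + 1) 0.

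Of the 9 genes called under all 24 alternatives run, Gpnmb, Hkdc1, Prss56 and Spon2 fell the most. Hkdc1 (chr10:62383137-62422491, minus strand), which encodes a hexokinase domain protein of glucose phosphorylation, had the lowest p of the whole comparison. It stood at 21.4, 20.8 and 22.1 CPM in MOG and 7.47, 8.70 and 7.49 CPM in GB20 (log2 fold change -1.44, SE 0.12, adjusted p = 3.53e-07), with a GB20 level 0.368 times that in MOG and a wide gap between the groups. Gpnmb (chr6:49036546-49070929, plus strand), a membrane glycoprotein of melanosomes and phagocytes, stood at 9.23, 12.1 and 10.99 CPM in MOG and 3.30, 2.80 and 3.59 CPM in GB20 (log2 fold change -1.73, SE 0.17, adjusted p = 5.49e-06). Prss56 (chr1:87183313-87188405, plus strand), a secreted serine protease made by Müller cells and linked to eye size, stood at 19.0, 22.6 and 17.9 CPM in MOG and 7.42, 6.99 and 5.60 CPM in GB20 (log2 fold change -1.57, SE 0.16, adjusted p = 1.3e-05). For both genes the GB20 libraries lay well below all MOG libraries. Spon2 (chr5:33198184-33218455, minus strand), a secreted matrix protein of the spondin family, stood at 6.27, 5.22 and 5.64 CPM in MOG and 1.55, 2.07 and 1.04 CPM in GB20 (log2 fold change -1.88, SE 0.26, adjusted p = 0.00108). As group means, Hkdc1 was 21.4 ± 0.664 CPM in MOG and 7.88 ± 0.701 CPM in GB20 (SD, n = 3), and Spon2 was 5.71 ± 0.526 CPM in MOG and 1.55 ± 0.516 CPM in GB20 (SD, n = 3).

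**Figure D3:**
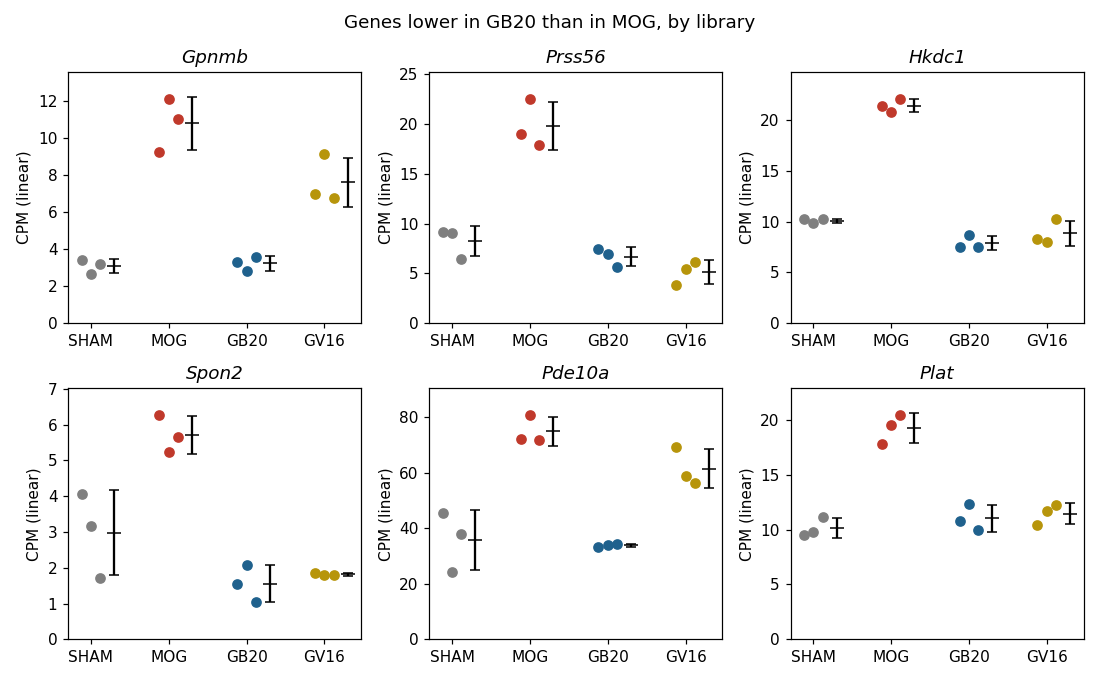
Each panel shows 1 gene that was lower in GB20 than in MOG, in CPM (linear axis from 0), with a point per library and the mean and SD of each group of 3. The GB20 points lie below all MOG points in every panel, and in Gpnmb and Pde10a they lie also below the GV16 points, in Gpnmb at 2.80 to 3.59 CPM against 6.75 to 9.13 CPM.

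Hkdc1 was read beside the other genes of glucose use. Of 26 genes for hexokinases, glycolytic enzymes and lactate or glucose carriers, Hkdc1 alone was called, and the median log2 fold change was 0.046. Hk2, the hexokinase of photoreceptors, overlapped between the groups, with 601, 459 and 465 CPM in MOG and 458, 569 and 468 CPM in GB20 (log2 fold change -0.03, adjusted p = 0.961). Of 22 genes of sterol synthesis and its control, 0 passed the test, and other fits called at most 1.

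Proteases that act on matrix were read with their inhibitors. Of 18 matrix proteases and inhibitors, 3 fell and none rose: Prss56, Plat and Mmp14. These 3 were called under every left-out library. Plat (chr8:22757727-22782844, plus strand), tissue plasminogen activator, stood at 17.7, 19.5 and 20.4 CPM in MOG and 10.8, 12.3 and 9.93 CPM in GB20 (log2 fold change -0.80, SE 0.12, adjusted p = 0.00153). Mmp14 (chr14:54431612-54445364, plus strand), a membrane-bound metalloproteinase that cuts collagen, stood at 22.4, 22.4 and 21.9 CPM in MOG and 13.2, 13.0 and 11.998 CPM in GB20 (log2 fold change -0.80, SE 0.12, adjusted p = 0.00153). For both genes the GB20 libraries lay close together and below all MOG libraries. The list's median was -0.10, and 7 of its 18 values were positive, against 50.2% of all genes tested.

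Of 24 basement membrane and matrix genes, 5 fell, against 0.142% of all genes tested, and none rose: Col4a1, Col4a2, Spon1, Spon2 and Fbn2. No laminin or nidogen gene and no other collagen of the list was called. The list was drawn up with earlier results of these data known. Col4a1 (chr8:11198423-11312826, minus strand), a chain of collagen IV, stood at 48.4, 56.6 and 56.8 CPM in MOG and 32.7, 38.3 and 36.1 CPM in GB20 (log2 fold change -0.59, SE 0.09, adjusted p = 0.00343), and remained a DEG under every left-out library. Col4a2, which shares a promoter region with Col4a1 and pairs with it in the same protein, stood at 32.3, 39.7 and 39.9 CPM in MOG and 23.5, 28.5 and 24.5 CPM in GB20 (log2 fold change -0.55, SE 0.11, adjusted p = 0.0292) and lost its call on leaving out MOG replicate 2 or 3 or GB20 replicate 1 or 3 (-0.53 to -0.49). Both collagens were lower in every GB20 library than in any MOG library. Spon1, a spondin of neural matrix, stood at 126, 110.4 and 124 CPM in MOG and 83.0, 95.2 and 91.3 CPM in GB20 (log2 fold change -0.42, SE 0.08, adjusted p = 0.0125) and lost its call on leaving out MOG replicate 1 or 3 or GB20 replicate 1 or 3 (-0.44 to -0.36). Fbn2, a fibrillin of microfibrils, stood at 4.20, 6.08 and 5.04 CPM in MOG and 2.01, 2.07 and 2.74 CPM in GB20 (log2 fold change -1.17, SE 0.23, adjusted p = 0.0233) and lost its call on leaving out MOG replicate 2 or 3 or GB20 replicate 1 or 2 (-1.18 to -1.03). In this list 22 of 24 values were negative, the median was -0.13, and it was -0.083 when gene length entered the model. The median exon length of the list was 9483 bases. Long genes in general leaned the same way, with 40.8% positive at 5 to 10 kb of exon and 24.0% positive above 10 kb. The number of list members called was 4, 3 and 2 without MOG replicate 1, 2 and 3 and 2, 4 and 3 without GB20 replicate 1, 2 and 3. Beside these genes, the 15 vessel markers had a median of -0.14 and summed to 370 to 394 CPM in MOG and 355 to 369 CPM in GB20, with 0 called and 0 at zero in all libraries. The part of vessel RNA in the fall of collagen was not tested.

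The called glial genes went in both directions. Of 15 Müller cell markers, 1 rose and 1 fell, and their median was 0.011. Car14, a carbonic anhydrase of Müller cells, stood at 48.4, 45.5 and 43.8 CPM in MOG and 60.6, 69.3 and 64.2 CPM in GB20 (log2 fold change 0.49, SE 0.09, adjusted p = 0.0158), and Aqp4, the water channel of their endfeet, at 153, 145 and 136 CPM in MOG and 113, 111 and 116 CPM in GB20 (log2 fold change -0.35, SE 0.07, adjusted p = 0.0293). The groups were apart for both, in opposite directions. The call of Car14 was lost on leaving out MOG replicate 2 or 3 or GB20 replicate 2 or 3 (0.44 to 0.50), and that of Aqp4 on leaving out any 1 of the 6 GB20 and MOG libraries (-0.40 to -0.31). Of the exons of Car14, 17.5% overlap Aph1a on the other strand. Of 20 gliosis genes, 1 fell, Osmr, a receptor subunit for oncostatin M, with 15.3, 18.3 and 19.7 CPM in MOG and 11.7, 11.01 and 10.8 CPM in GB20 (log2 fold change -0.67, SE 0.14, adjusted p = 0.0302). Osmr lost its call on leaving out MOG replicate 2 or 3 or any GB20 library (-0.70 to -0.59). Gfap, the intermediate filament of reactive glia, stood at 54.0, 58.3 and 52.4 CPM in MOG and 62.5, 53.0 and 38.2 CPM in GB20 (log2 fold change -0.10, SE 0.16, adjusted p = 0.906), so that the GB20 libraries spread on both sides of the MOG libraries. Fgf2, a growth factor of injured retina, stood at 59.9, 59.4 and 76.6 CPM in MOG and 56.0, 49.2 and 47.9 CPM in GB20 (log2 fold change -0.35, SE 0.10, adjusted p = 0.235), lower in all GB20 libraries without passing the threshold, though it passed with no filter on low counts (adjusted p = 0.0223). The median of the gliosis list was -0.13.

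Other lower genes of transport and hormone handling were called. Slc20a2, a phosphate transporter, stood at 56.0, 57.9 and 51.8 CPM in MOG and 38.8, 40.0 and 37.5 CPM in GB20 (log2 fold change -0.51, SE 0.08, adjusted p = 0.00224), and Crym, which binds thyroid hormone in the cytosol, at 65.4, 65.8 and 64.0 CPM in MOG and 47.6, 49.8 and 40.8 CPM in GB20 (log2 fold change -0.50, SE 0.08, adjusted p = 0.00407). Both were called in all 24 alternatives and showed no overlap. Agt, angiotensinogen, stood at 9.85, 10.9 and 10.5 CPM in MOG and 5.46, 7.17 and 4.39 CPM in GB20 (log2 fold change -0.88, SE 0.16, adjusted p = 0.0134) and lost its call on leaving out MOG replicate 2 or 3 or GB20 replicate 1 or 3 (-0.87 to -0.73). GB20 replicate 2 was the highest of its group for Agt and still below the lowest MOG library.

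Among genes of neurons, Trim9, a ubiquitin ligase of neurites, stood at 135, 142 and 138 CPM in MOG and 91.2, 103 and 103 CPM in GB20 (log2 fold change -0.48, SE 0.08, adjusted p = 0.00407), and lost its call on leaving out MOG replicate 2 or GB20 replicate 1 (-0.47 to -0.43). Kcnma1, the pore of the large-conductance potassium channel, stood at 272, 267 and 286 CPM in MOG and 196, 187 and 214 CPM in GB20 (log2 fold change -0.47, SE 0.08, adjusted p = 0.0134), and lost its call on leaving out MOG replicate 2 or 3 or GB20 replicate 1 or 2 (-0.49 to -0.42). Every GB20 library was below every MOG library for both of these abundant genes. Dscaml1, an adhesion molecule of retinal interneurons, had a log2 fold change of -0.39, adjusted p = 0.0158, and Sorl1, a sorting receptor of endosomes, one of -0.56, adjusted p = 0.0235. Syt15, a synaptotagmin, had a log2 fold change of -0.56, adjusted p = 0.0421, and Cacna1s, a subunit of L-type calcium channels, one of -0.39, adjusted p = 0.0488. Dpy19l3, a glycosyltransferase, had a log2 fold change of -0.50, adjusted p = 0.0283, and Scara3, a scavenger receptor, one of -0.46, adjusted p = 0.0227. The adjusted p of these 6 genes lay between 0.0158 and 0.0488. Dscaml1, Dpy19l3 and Scara3 each lost their call with any 1 of the 6 GB20 and MOG libraries left out (-0.41 to -0.37, -0.55 to -0.40 and -0.49 to -0.39). Sorl1 lost its call on leaving out any MOG library or GB20 replicate 1 or 2 (-0.59 to -0.48), Syt15 on leaving out any 1 of the 6 GB20 and MOG libraries or GV16 replicate 1 (-0.64 to -0.46), and Cacna1s on leaving out any 1 of the 6 GB20 and MOG libraries, any GV16 library or SHAM replicate 1 or 3 (-0.42 to -0.36). Of the exons of Cacna1s, 20% overlap Gm37759 on the other strand.

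Cnp, a phosphodiesterase of myelinating cells, was the one called gene of the oligodendrocyte list. It stood at 25.5, 24.5 and 25.4 CPM in MOG and 15.8, 17.7 and 17.1 CPM in GB20 (log2 fold change -0.58, SE 0.10, adjusted p = 0.00767), a narrow range in each group, and lost its call on leaving out MOG replicate 3 or GB20 replicate 1 (-0.57 to -0.53). Of the 12 oligodendrocyte markers, 5 passed the filter, none was at 0 in all libraries, and their sum was 71.8 to 103 CPM in MOG and 58.2 to 64.8 CPM in GB20. Mbp, which encodes myelin basic protein, stood at 33.9, 46.1 and 33.0 CPM in MOG and 27.7, 32.3 and 34.0 CPM in GB20 (log2 fold change -0.27, adjusted p = 0.601). MOG replicate 2 was the highest of the 6 libraries for Mbp, and the groups overlapped. The part of myelinating cells in the fall of Cnp was not tested.

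The remaining higher genes belonged to no single list. Cys1, a protein of cilia, stood at 11.2, 8.54 and 9.07 CPM in MOG and 18.1, 19.8 and 15.6 CPM in GB20 (log2 fold change 0.89, SE 0.14, adjusted p = 0.00343) and lost its call on leaving out MOG replicate 2 (0.81). Calcrl, the receptor for adrenomedullin and calcitonin gene-related peptide, stood at 3.25, 3.44 and 4.50 CPM in MOG and 6.95, 6.87 and 6.82 CPM in GB20 (log2 fold change 0.88, SE 0.17, adjusted p = 0.0188), and lost its call on leaving out MOG replicate 1 or 2 or any GB20 library (0.79 to 0.89). The GB20 libraries of Calcrl lay within a narrow range above all MOG libraries. Prr5, a subunit of the mTORC2 kinase complex, stood at 4.14, 4.06 and 3.96 CPM in MOG and 6.80, 7.42 and 7.73 CPM in GB20 (log2 fold change 0.85, SE 0.15, adjusted p = 0.0118), and lost its call on leaving out MOG replicate 2 or 3 or GB20 replicate 2 or 3 (0.80 to 0.85). Prkag3, a regulatory subunit of AMP-activated kinase, stood at 1.74, 1.97 and 1.26 CPM in MOG and 2.99, 3.65 and 3.47 CPM in GB20 (log2 fold change 1.02, SE 0.22, adjusted p = 0.0488) at a low level, and lost its call on leaving out any 1 of the 6 GB20 and MOG libraries, any GV16 library or SHAM replicate 1 or 3 (0.86 to 1.16), and also with DESeq2 on 12 libraries (adjusted p = 0.0639) and limma-voom (0.0726). The fold changes of Prr5 and Prkag3 were 1.80 and 2.03, with separate groups for both.

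Slc5a8, a sodium-coupled carrier of lactate and other monocarboxylates, had a log2 fold change of 0.63, adjusted p = 0.0283, and lost its call on leaving out any 1 of the 6 GB20 and MOG libraries (0.58 to 0.67). Cav1, the coat protein of caveolae, had a log2 fold change of 0.49, adjusted p = 0.0188, and lost its call on leaving out MOG replicate 2 or 3 or GB20 replicate 1 or 3 (0.45 to 0.47). Tle3, a transcriptional co-repressor, had a log2 fold change of 0.42, adjusted p = 0.0158, and lost its call on leaving out MOG replicate 2 or 3 or GB20 replicate 1 or 3 (0.38 to 0.42). Crlf3, a cytokine receptor-like factor, stood at 107, 114 and 112 CPM in MOG and 148, 153 and 139 CPM in GB20 (log2 fold change 0.40, SE 0.09, adjusted p = 0.0488) and lost its call on leaving out any 1 of the 6 GB20 and MOG libraries or GV16 replicate 3 (0.37 to 0.43), and also with limma-voom (adjusted p = 0.0565). Crlf3 was also a gene whose level differed little between MOG and SHAM, with a log2 fold change of -0.03 (adjusted p = 0.932).

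Cell type markers were read for shifts in the makeup of the retina. Of 25 ganglion cell markers, 0 passed the edgeR test on 12 libraries, 23 were positive, against 50.2% of all genes tested, and the median was 0.12. The call turned with the fit: 3 markers, Sncg, Uchl1 and Tppp3, were called higher in GB20 with DESeq2 and edgeR on the 6 libraries and with no filter on low counts. Without adjustment 7 had a p under 0.05, all higher, against 4.11% of all genes tested. Prph, a neurofilament partner of ganglion cell axons, stood at 1.90, 1.72 and 1.98 CPM in MOG and 3.55, 3.53 and 2.92 CPM in GB20 (log2 fold change 0.83, adjusted p = 0.135). Sncg, a synuclein of ganglion cells, stood at 37.0, 38.8 and 35.7 CPM in MOG and 52.9, 49.0 and 48.5 CPM in GB20 (log2 fold change 0.43, adjusted p = 0.228), and Uchl1, a neuronal ubiquitin hydrolase, at 77.0, 66.5 and 68.4 CPM in MOG and 82.5, 94.4 and 95.5 CPM in GB20 (log2 fold change 0.36, adjusted p = 0.185). GB20 libraries were all above MOG libraries for Prph, Sncg and Uchl1, as for 7.96% of all genes tested. With DESeq2 on the 6 libraries the adjusted p was 0.000632 for Sncg, 0.00968 for Uchl1 and 0.00944 for Tppp3, a microtubule-binding protein. Nefl, the light neurofilament, stood at 293, 284 and 263 CPM in SHAM, 163, 136 and 139 CPM in MOG and 178, 168 and 172 CPM in GB20 (log2 fold change 0.24, adjusted p = 0.567). Summed over the 25 markers, the level was 986 to 1170 CPM in MOG and 1140 to 1200 CPM in GB20, and the groups overlapped.

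Photoreceptor and interneuron markers had medians near 0. The median log2 fold change was -0.006 over 16 rod genes, 0.049 over 11 cone genes, -0.045 over 14 bipolar genes and -0.079 over 18 amacrine and horizontal cell genes, with 0 called in each. Gnat1, the transducin of rods, had a log2 fold change of -0.02, adjusted p = 0.955. The 2 cone opsins Opn1mw and Opn1sw had values of 0.18, adjusted p = 0.57 and -0.20, adjusted p = 0.467. Of 18 microglia genes, 0 passed, with a median of -0.06 and a sum of 89.9 to 96.2 CPM in MOG and 75.9 to 104 CPM in GB20. Of 12 T cell genes, 1 passed the expression filter, and it was not called. The 11 genes of the pigment epithelium, cells that can adhere to a dissected retina, had 0 called, a median of -0.0042 and overlapping sums of 51.4 to 63.1 CPM and 51.5 to 60.9 CPM. Lens, erythrocyte and muscle or cornea genes had 4, 3 and 3 members tested and 0 called.

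**Figure D4:**
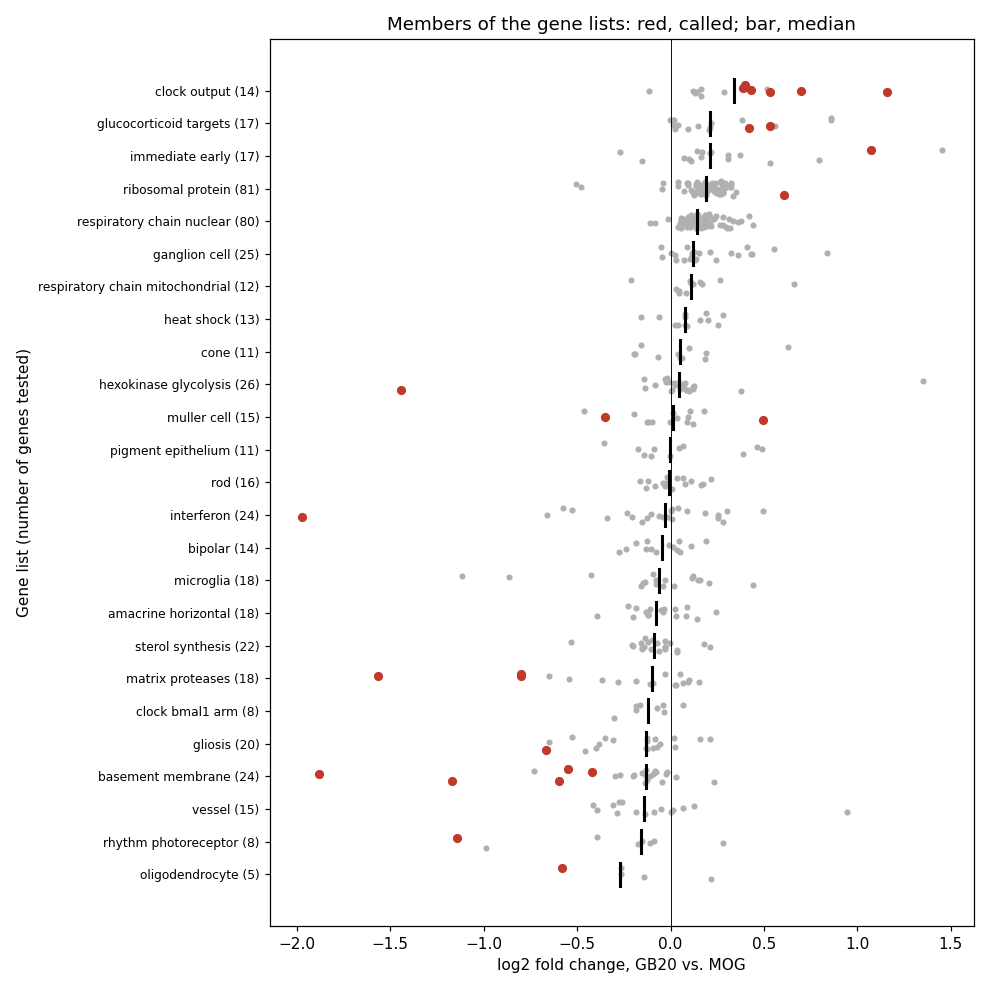
Each row is a gene list with at least 5 members tested, with a point for the log2 fold change in GB20 vs. MOG of each member tested and a bar for the median, and called genes in red. The clock outputs have the highest median, 0.34, the oligodendrocyte list the lowest, -0.27, and most cell type lists are centred near 0.

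Of 24 interferon genes tested, 1 fell, Oas2, which encodes an antiviral enzyme that senses double-stranded RNA, and the median was -0.028. Oas2 stood at 2.46, 1.84 and 1.74 CPM in MOG and 0.876, 0.182 and 0.426 CPM in GB20 (log2 fold change -1.97, SE 0.41, adjusted p = 0.0364). In GV16 it stood at 0.248, 0.450 and 0.124 CPM and in SHAM at 0.303, 0.294 and 0.222 CPM. The level was low in all groups, GB20 replicate 1 was the highest of its group, and the call was lost on leaving out any MOG library or GB20 replicate 2 or 3 (-2.07 to -1.60).

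Ribosomal protein genes had mostly positive values. Of 81 tested, 77 were positive against 50.2% of all genes and the median was 0.19. The number of ribosomal genes called higher turned with the fit. It was 8 with DESeq2 on the 6 libraries, 7 with no filter on low counts, 3 with edgeR on the 6 libraries and 0 with limma-voom. Of the nuclear genes of the respiratory chain, 77 of 80 were positive, with a median of 0.14 and 0 called, and 2 were called by edgeR on the 6 libraries and with no filter. The mitochondrial genes of the chain had a median of 0.11 and heat shock genes 0.08, with 0 called. The sums of the ribosomal list overlapped, at 9750 to 11100 CPM in MOG and 10800 to 12500 CPM in GB20. Ribosomal protein genes have many near-identical copies, and how reads with several alignments were counted is not given in the sources used here.

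Gene length moved with the direction of change. The median log2 fold change was 0.073 in genes with exons under 1.5 kb in total and 0.05, 0.014, -0.025 and -0.076 in the 4 successive classes bounded at 3, 5 and 10 kb. Among the DEGs, 19 of 26 lower and 4 of 18 higher genes exceeded 5 kb, against 35.8% of tested genes. The slope of log2 CPM on log2 length, taken relative to the mean of all libraries, was 0.0135, 0.0140 and 0.0161 in MOG and -0.0328, -0.0237 and 0.0134 in GB20. The mean difference was -0.0289 (exact permutation test, two-sided, p = 0.1, the smallest that 3 against 3 allows), and GB20 replicate 3 lay with MOG. The slope was 0.00386, -0.05 and 0.029 in SHAM and 0.0202, -0.0154 and 0.0119 in GV16. SHAM replicate 2 thus had a lower slope than any GB20 library, and the SHAM libraries spread widely. Other genes in the length range of the ribosomal list had a median of 0.053, with 63.3% positive, and those in the range of the respiratory list a median of 0.057, with 63.6% positive. With length in the model, the medians of the lists became 0.17 for ribosomal genes, 0.12 for the respiratory chain and 0.35 for clock outputs, 52 genes were DEGs, and 43 of the 44 were among them. The gene that lost its call was Per1 (adjusted p = 0.0679), while Tef was called (adjusted p = 0.0116). The part of RNA quality in these shifts was not tested.

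The values of single genes in MOG vs. SHAM (245 DEGs, 1.34%) and GV16 vs. MOG (30 DEGs, 0.164%) were set beside GB20 vs. MOG, and all these comparisons share the MOG libraries. For Hkdc1, the log2 fold change was 1.08 (adjusted p = 6.46e-06) in MOG vs. SHAM and -1.27 (adjusted p = 1.87e-06) in GV16 vs. MOG. For Prss56 it was 1.27 (adjusted p = 8.78e-05) and -1.94 (adjusted p = 1.52e-06), and for Plat 0.92 (adjusted p = 0.000104) and -0.75 (adjusted p = 0.00434). For Ciart it was -0.85 (adjusted p = 0.00105) and 0.79 (adjusted p = 0.00731), and for Per2 -0.38 (adjusted p = 0.102) and 0.62 (adjusted p = 0.017). Some genes called in GB20 vs. MOG had small or uncalled values after immunization. Spon1 was at 0.14 (adjusted p = 0.453) in MOG vs. SHAM, Prkag3 at -0.17 (adjusted p = 0.802), Cry1 at -0.15 (adjusted p = 0.376), Car14 at -0.17 (adjusted p = 0.434) and Col4a2 at 0.19 (adjusted p = 0.473). Per1 was at -0.25 (adjusted p = 0.31), Egr3 at -0.80 (adjusted p = 0.11), Calcrl at -0.37 (adjusted p = 0.367), Sorl1 at 0.23 (adjusted p = 0.346) and Agt at 0.48 (adjusted p = 0.156).

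Needling at GB20 was compared directly with needling at GV16, with the MOG and SHAM libraries entering the estimate of spread alone. Of the 18299 genes, 1 was a DEG, or 0.00546%, and 536 genes (2.93%) had an unadjusted p under 0.05. The DEG was Gpnmb, at 3.30, 2.80 and 3.59 CPM in GB20 and 6.95, 9.13 and 6.75 CPM in GV16, with no overlap (log2 fold change -1.23, SE 0.17, adjusted p = 0.00697). Its value was -0.50 (adjusted p = 0.495) in GV16 vs. MOG and 1.80 (adjusted p = 1.57e-06) in MOG vs. SHAM. No gene was called, Gpnmb included, without GB20 replicate 1 or 2 or GV16 replicate 2, 2 genes were called without GV16 replicate 1, SHAM replicate 1 or MOG replicate 3, and 4 were called without SHAM replicate 2.

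For the other genes called in GB20 vs. MOG, the difference between the needling sites did not pass the threshold in the 12-library edgeR fit. Among clock genes, GB20 exceeded GV16 by 0.36 (SE 0.07, adjusted p = 0.305) for Dbp, by 0.37 (SE 0.08, adjusted p = 0.659) for Bhlhe40, by 0.36 (SE 0.12, adjusted p = 1) for Ciart and by 0.29 (SE 0.10, adjusted p = 1) for Per1. For Per2 and Cry1 the differences were 0.07 (SE 0.11, adjusted p = 1) and 0.03 (SE 0.07, adjusted p = 1). The GB20 and GV16 libraries did not overlap for Dbp, Bhlhe40 and Per1, as for 8.34% of all genes tested, and they overlapped for Ciart, Per2 and Cry1. Pde10a differed by -0.86 (SE 0.17, adjusted p = 1) and Egr3 by 0.96 (SE 0.23, adjusted p = 1), with separate groups for both. The Pde10a difference was called with DESeq2 on 12 libraries (adjusted p = 0.000192), with DESeq2 and edgeR on 6 libraries (1.96e-13 and 1.31e-06) and with no filter on low counts (1.04e-10), and that of Dbp with DESeq2 on 12 libraries (0.0134) and with no filter (0.0239). Hkdc1, Prss56 and Spon2 differed by -0.17 (SE 0.13, adjusted p = 1), 0.38 (SE 0.18, adjusted p = 1) and -0.23 (SE 0.30, adjusted p = 1). Plat and Mmp14 differed by -0.05 (SE 0.12, adjusted p = 1) and -0.09 (SE 0.12, adjusted p = 1), and Col4a1 by -0.22 (SE 0.09, adjusted p = 1). A p above the threshold does not show that the sites acted alike.

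**Figure D5:**
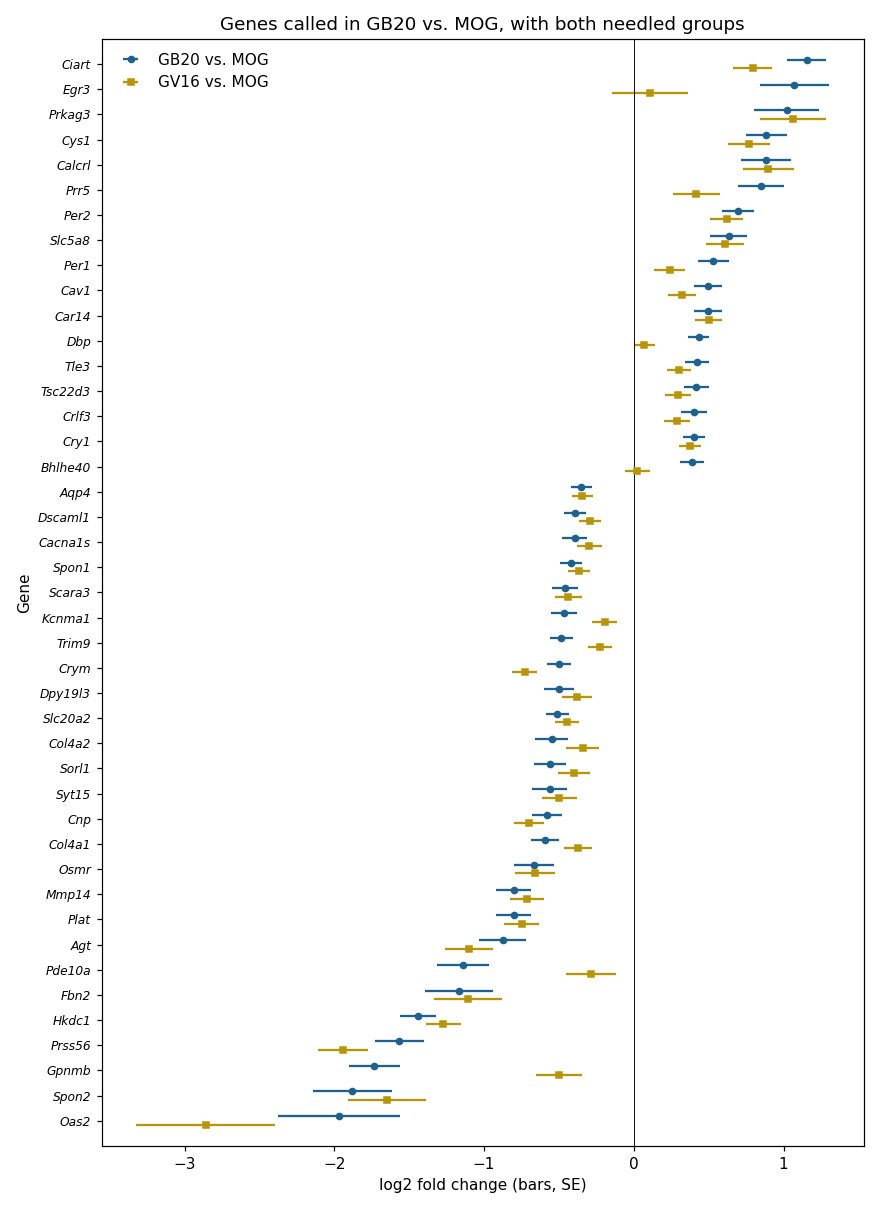
For 43 of the 44 DEGs of GB20 vs. MOG, points give the log2 fold change in GB20 vs. MOG and in GV16 vs. MOG, which share the MOG libraries, and bars give the SE. The points of both needled groups lie close for Hkdc1, at -1.44 and -1.27, and far apart for Gpnmb, at -1.73 and -0.50.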

How the data were processed

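Polyadenylated RNA of 12 retina libraries, 3 in each of 4 groups, had been sequenced. The authors aligned the reads with HISAT2 2.0.5 to mm10, per the submitters' processing notes, counted reads per gene with FeatureCounts, and deposited whole-number counts without normalization. The deposited FPKM values had been computed by the authors from the same counts and the gene length. Not given in the sources used here are the strand setting, the annotation release and the treatment of multiply aligned reads. Groups and replicate numbers came from the sample labels. Names and coordinates came from GENCODE vM21 (GRCm38), which held 54495 of the 54532 identifiers, and upstream windows from RefSeq (GRCm38.p6).

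Counts were tested with edgeR 4.0.16 in R 4.3.3: expression filter with the 4 groups, TMM scaling, 1 mean per group over all 12 libraries (8 residual degrees of freedom), robust quasi-likelihood test and Benjamini-Hochberg adjustment over 18299 genes, with a DEG at adjusted p under 0.05. CPM used the TMM library sizes. DESeq2 1.42.0, limma 3.58.1 on voom weights and on log2(FPKM + 1), other filters and scalings, length offsets, a replicate block and leaving out each library were alternatives. On simulated counts for GB20 vs. MOG with 200 changed genes among 18033, edgeR recovered 172 and made 12 false calls. The median log2 fold change of that set was 1.00, against a median size of 0.57 among the DEGs. Recovery of smaller differences was not tested. The slope on length was compared by an exact permutation test over libraries (scipy 1.17.1), and figures were drawn with matplotlib 3.10.9. Named genes were the 10 rising and 10 falling DEGs with the lowest p, the 5 of each with the largest change, the DEGs of each list, for lists without DEGs up to 4 abundant members, and the DEGs of GB20 vs. GV16. Agt, Crlf3, Slc5a8, Cacna1s, Dscaml1, Scara3, Syt15, Dpy19l3, Sorl1 and Kcnma1 were named beyond the rule to account for the DEGs, of which 1 is not reported here, and list members below the threshold, such as Tef, Usp2, Nr1d1, Nr4a3, Prph, Gfap, Fgf2 and the myelin genes, were named after their values were seen. The members and the 29 gene lists were chosen with earlier results of these data known. Same-numbered GB20 and MOG libraries did not deviate together across genes as a whole, so the replicate number was not used in the test.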

Additional observations from a re-analysis of the deposited data

Results flagged for a closer look

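Gpnmb was singled out because its level differed between the needling sites in a direct test: the log2 fold change in GB20 vs. GV16 was -1.23 (SE 0.17, edgeR adjusted p = 0.00697), lower in 3 of 3 GB20 libraries than in any GV16 library. Pigment cells and phagocytes are known to express it. The 11 pigment epithelium genes tested summed to 51.5 to 60.9 CPM in GB20 and 34.5 to 75.4 CPM in GV16, and the 18 microglia genes to 75.9 to 104 CPM and 82.4 to 98.0 CPM. The part of these cells in the difference was not tested. Gpnmb was not called on leaving out GB20 replicate 1 (log2 fold change -1.25), GB20 replicate 2 (-1.14) or GV16 replicate 2 (-1.08).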

How the results depend on the processing

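No DEG changed sign under any of the 24 alternatives. Against the 44 DEGs of GB20 vs. MOG, 140 were found with no filter on low counts, 126 with DESeq2 and 118 with edgeR on the 6 libraries alone, and 14 with limma on log2(FPKM + 1), and leaving out 1 library gave between 13 (without MOG replicate 2) and 83 (without SHAM replicate 2). Of the 44, 41 were called by DESeq2 on the 6 libraries, 44 by edgeR on them and 13 with FPKM. Same-numbered GB20 and MOG libraries correlated at -0.08, -0.05 and 0.03 in their deviations. This showed no pairing by replicate number across genes as a whole. With 3 libraries a group, these correlations cannot exclude that a number marks a shared experiment. A replicate block gave 73 DEGs (43 of the 44, without Pde10a, and with 8 clock outputs and 2 ganglion cell markers), or 95 with length offsets. For GB20 vs. GV16, against 1 DEG (536 genes at an unadjusted p under 0.05), the counts were 8 with no filter, 5 with DESeq2 on 12 libraries, 4 with DESeq2 and 3 with edgeR on 6 libraries, 0 with limma on log2(FPKM + 1) (603 genes at an unadjusted p under 0.05), 1 with the replicate block, and between 0 and 4 with a library left out. The 6-library fits estimate the spread from fewer samples, and the FPKM fit compresses low genes. The cause of the differences between fits was not tested. The mean slope on gene length in GB20 minus that in MOG was -0.0289. This difference was -0.0539 in genes of at least 10 CPM (exact permutation test, two-sided, p = 0.2, where 0.1 is the smallest possible).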

Other observations

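Gapdh, a glycolytic enzyme often used as a reference transcript, stood at 38.6, 42.5 and 42.4 CPM in MOG and 38.2, 42.3 and 236 CPM in GB20, with GB20 replicate 3 far above the other libraries (log2 fold change 1.35, adjusted p = 0.666). In SHAM it stood at 34.1, 62.5 and 85.4 CPM. Gapdh was chosen after its values were seen, and how reads shared with its many processed copies were counted is not given in the sources used here. Arr3, cone arrestin, stood at 291, 454 and 397 CPM in SHAM and 205, 277 and 322 CPM in MOG. It stood at 378, 428 and 436 CPM in GB20 and 309, 407 and 414 CPM in GV16. All GB20 libraries exceeded all MOG libraries for Arr3. It was not called by edgeR without a replicate block (log2 fold change in GB20 vs. MOG 0.63, adjusted p = 0.48). It was called by edgeR with a replicate block (adjusted p = 0.00019), and with that block and length offsets (9.48e-06). Replicate 1 had the lowest Arr3 level in each group. Kcnj8, a potassium channel subunit of pericytes, had the highest value of the vessel list (log2 fold change 0.94, adjusted p = 0.165) while the median of that list was negative. These genes were likewise chosen after their values were seen.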
